A study of Rattus norvegicus with 6 samples.

Results

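AP-1 is a dimeric transcription factor built from a FOS subunit and a JUN subunit, or from JUN subunits alone, held together by a leucine zipper and bound to DNA through a neighbouring basic region. Several of its genes, such as Fos and Jun, belong to the immediate-early class, and most of their mRNAs are short-lived. Serum, growth factors, cytokines or stress switch these genes on within minutes through MAP kinases, without new protein synthesis. Other subunits differ, such as Fosl1, which accumulates late, and Jund, which is kept at a steady level. In cardiac fibroblasts this class is known for coupling such signals to proliferation, matrix turnover and inflammatory genes. The data described here are the levels of 10 AP-1 and immediate-early factors, taken by symbol from the count files. They are the FOS subunits Fos, Fosb, Fosl1 and Fosl2, the JUN subunits Jun, Junb and Jund, the zinc finger factor Egr1, the stress-induced AP-1 partner Atf3, and Myc. All 10 were among the 21857 symbols listed and all 10 were among the 12941 genes tested.

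Primary cardiac fibroblasts of newborn rats (NRCFs) were transfected with a plasmid, and their RNA was sequenced. The study collected the cells days, not minutes, after transfection. In 3 libraries the genotype label is WT and the cells received the empty plasmid (Vector). In the other 3 the label is FTO overexpression, the plasmid carrying rat FTO, the demethylase that removes N6-methyladenosine from RNA. The series text names healthy Sprague-Dawley rats and the strain label reads Noway. The share of cells that took up the plasmid and the oxygen level of the sequenced cultures are not given in the sources used here. Neither is whether the replicates came from separate cultures, so p-values measure only the spread between these libraries, which may be technical.

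Libraries held 13178952 to 17857999 counted reads. Fto itself was at 88.3 ± 1.20 CPM (read counts scaled to library size) in Vector and 92.3 ± 1.32 CPM in the other group (SD, n = 3 each). Its log2 fold change was 0.06 (SE 0.0468, edgeR quasi-likelihood test with Benjamini-Hochberg adjustment, adjusted p = 0.239), and the upper 95% limit of the fold was 1.12. As the plasmid gene was not detectably raised, the second group is called the libraries labelled FTO throughout. The paper reports that FTO plasmid transfection was checked by qRT-PCR and at the protein level, and that it lowered N6-methyladenosine on dot blots. Whether the cultures of those checks were the ones sequenced is not given in the sources used here. In the marker counts that follow, higher and lower mean an adjusted p-value under 0.05. Of all tested genes, 33.2% were higher and 32.8% lower in that sense. All 10 fibroblast markers were above the floor of 3 counts in every library, 5 being higher and 5 lower, and their summed level was 41535 to 42194 CPM in Vector and 20711 to 21590 CPM in the libraries labelled FTO. Most of the Vector sum came from the collagen genes Col1a1 and Col3a1, which fell from means of 25809 and 10699 CPM to 8268 and 3338 CPM. Dcn, among the 5 that were higher, rose from 47.0 to 5611 CPM, so the sum does not measure fibroblast content. Of 12 macrophage markers 11 were lower, with a sum of 1805 to 1863 against 301 to 338 CPM, and C1qb and C1qc stayed at 2 counts or fewer throughout the second group. The exception, Adgre1, rose by 2.22 on the log2 scale. Of 12 cardiomyocyte markers 11 were higher, with a sum of 1824 to 1862 against 2944 to 3070 CPM. Tnnt2, a large part of the Vector sum, was the 1 that was lower, falling from a mean of 769.8 to 648.7 CPM. These cell types also express immediate-early genes, and the part of such cells in the results below was not tested. In bulk libraries, fewer cells of a type and less RNA per cell cannot be told apart.

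The main result was a shift between the mRNAs of AP-1 subunits, whose proteins, dimers and DNA binding were not measured. Fos and Jun, the founding pair of AP-1, each fell about 4-fold, while Fosl1, Fosl2 and Junb rose. Of the 10 genes, 9 had an adjusted p-value under 0.05, where 65.9% of all tested genes did, so that share alone says little. In direction, 4 of the 10 rose (33.2% of all genes were called higher) and 5 fell (32.8% were called lower). The threshold of the study, an absolute log2 fold change of at least 1 with an unadjusted p-value under 0.05, was passed by 4 of the 10, namely Fos, Jun, Fosb and Fosl1, against 19.6% of all genes. By direction, 1 of the 10 passed it as higher (10.4% of all genes) and 3 as lower (9.27%). Groups without overlap in CPM were seen for 9 of the 10, against 70.3% of all genes, with 4 higher (35.5% of all genes) and 5 lower (34.8%). The median log2 fold change over the 10 was -0.32, where that of all tested genes was 0.00. The members moved both ways, from -2.10 to 1.51, so this median does not stand for each of them.

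**Figure D1:**
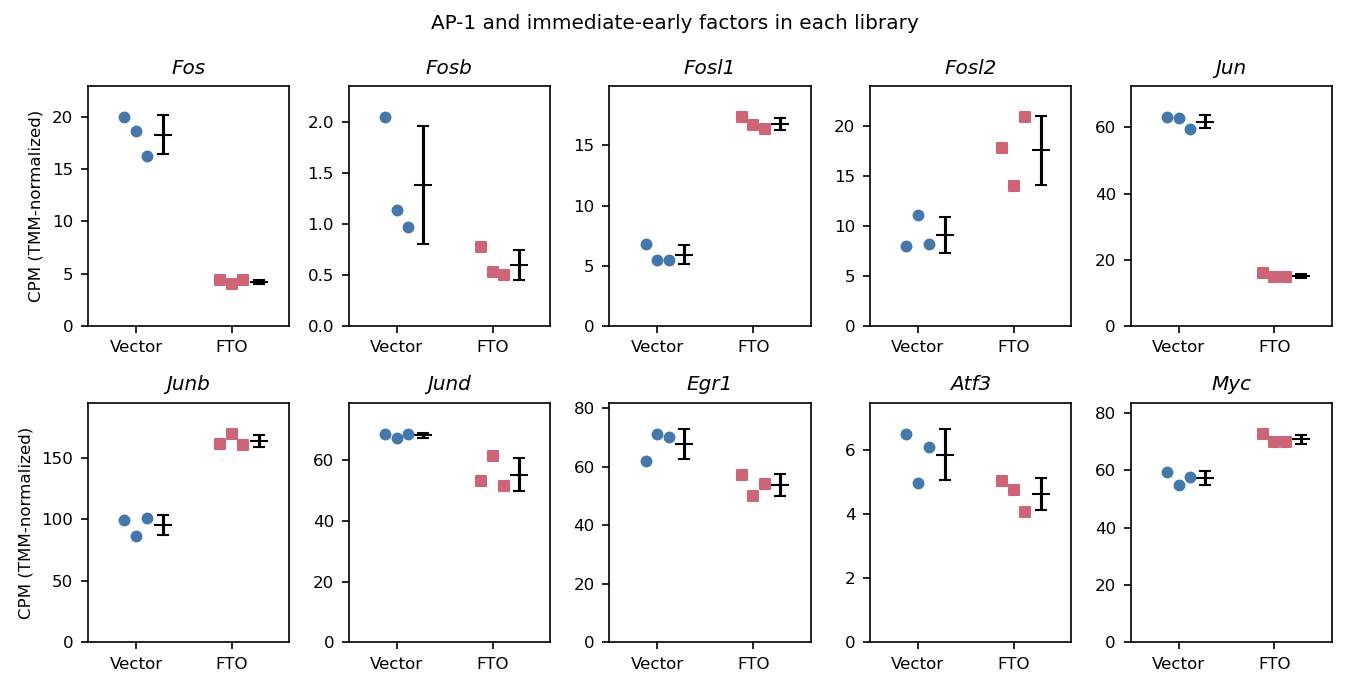
TMM-normalized CPM (vertical axes, starting at 0) of each gene in the 3 Vector libraries (blue circles) and the 3 libraries labelled FTO (red squares), with the mean and SD as a black bar. Fos and Jun fell from 18.3 to 4.24 and from 61.8 to 15.1 CPM on average, Fosl1, Fosl2, Junb and Myc lay higher in every library labelled FTO, and Atf3 is the gene whose groups overlap.

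Fos, the prototype FOS subunit and strong transactivator, was measured at 19.97, 18.7 and 16.3 CPM in Vector replicates 1, 2 and 3. The libraries labelled FTO held 4.35, 4.003 and 4.36 CPM. Every library labelled FTO lay far under the lowest Vector library. The log2 fold change was -2.10 (SE 0.124), a level 4.30-fold lower (edgeR adjusted p = 7.0e-10).

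Fosb, a close relative of Fos that is best known from neurons, was rare, with 28, 17 and 14 counts in Vector and 11, 7 and 9 in the libraries labelled FTO. Those counts correspond to 2.05, 1.14 and 0.970 CPM and to 0.772, 0.529 and 0.503 CPM. The groups did not overlap, but Vector replicate 1 stood well above the rest. Its log2 fold change of -1.20 (SE 0.385) passed (edgeR adjusted p = 0.0130). Without Vector replicate 1 it was -0.82 with an adjusted p-value of 0.0935, so the call rested on that library.

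Fosl1 encodes FRA1, a FOS protein that lacks the strong transactivation domain of Fos and accumulates late after stimulation and in invasive cells. It was at 6.80, 5.43 and 5.47 CPM in Vector and at 17.3, 16.7 and 16.4 CPM in the libraries labelled FTO. Each library labelled FTO was thus more than 2-fold above each Vector library. The gene rose by 1.51 on the log2 scale (SE 0.116), a 2.85-fold increase with a 95% confidence interval of 2.396 to 3.38 (edgeR adjusted p = 1.8e-08).

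Fosl2 encodes FRA2, the related protein whose overexpression in mice is known to cause tissue fibrosis. Vector replicates were at 7.97, 11.1 and 8.17 CPM. The libraries labelled FTO were at 17.8, 14.0 and 20.9 CPM, all above Vector but widely spread. The coefficient of variation was 19.5% in both groups, where counting error alone would give 8.74% and 6.07%. Even so the log2 fold change of 0.96 (SE 0.153) passed (edgeR adjusted p = 5.7e-05). It lay just under the 2-fold line of the study.

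In the JUN family, Jun fell and Junb rose. Jun, the JUN subunit with the strongest transactivation and the main substrate of the JNK kinases, was at 63.1, 62.8 and 59.4 CPM in Vector and at 15.9, 14.7 and 14.9 CPM in the libraries labelled FTO. Both groups were tight, with coefficients of variation of 3.29% and 4.51%. The log2 fold change was -2.03 (SE 0.0687), 4.08-fold lower (edgeR adjusted p = 7.4e-13).

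Junb, which weakens Jun activity on many promoters and is induced by cytokines through STAT factors as well as by serum, was at 99.6, 86.2 and 100.8 CPM in Vector. The libraries labelled FTO held 160.8, 169.2 and 160.1 CPM. No library of one group came near the other. The increase was 0.77 on the log2 scale (SE 0.0579), or 1.71-fold (edgeR adjusted p = 1.2e-08).

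Jund, the JUN subunit that is kept at a steady level in resting cells and protects fibroblasts from stress, was at 68.8, 67.3 and 68.6 CPM in Vector and at 53.2, 61.4 and 51.4 CPM in the libraries labelled FTO. The Vector libraries hardly differed (coefficient of variation 1.17%), and replicate 2 labelled FTO lay between them and the other two. The change was small, -0.31 on the log2 scale (SE 0.0658, edgeR adjusted p = 8.1e-04).

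**Figure D2:**
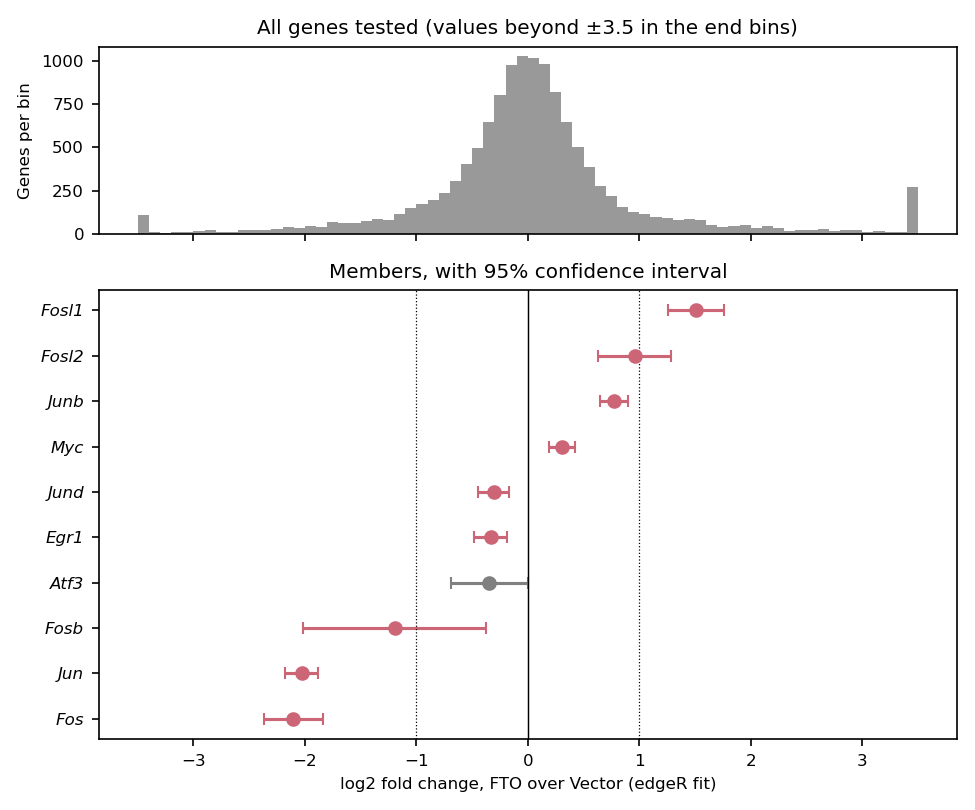
Log2 fold change, libraries labelled FTO against Vector (horizontal axis), for all 12941 tested genes as a histogram (top) and for the 10 factors with 95% confidence intervals (bottom). Red marks an adjusted p-value under 0.05, grey marks Atf3, and dotted lines mark a 2-fold change. Jun and Fos lie at -2.03 and -2.10, Fosl1 at 1.51, and Egr1, Jund and Myc within 0.34 of 0.

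Among the 3 factors outside the FOS and JUN families that were followed, changes were small. Egr1, a zinc finger factor switched on by serum response factor, was at 61.8, 71.2 and 70.2 CPM in Vector and at 57.2, 49.9 and 54.1 CPM in the libraries labelled FTO. Its highest library labelled FTO was close to the lowest Vector library, without overlap. The log2 fold change was -0.33 (SE 0.0682, edgeR adjusted p = 5.3e-04).

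Myc, the growth regulator that pairs with MAX on E-box sequences, was at 59.6, 54.9 and 57.6 CPM in Vector. In the libraries labelled FTO it was at 72.7, 69.7 and 69.9 CPM. All 3 lay above Vector, by a modest margin that was still larger than the spread within either group. The gene rose by 0.30 on the log2 scale (SE 0.0547, edgeR adjusted p = 1.7e-04).

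Atf3, which is induced by many stresses and represses inflammatory genes, was at 6.51, 4.97 and 6.09 CPM in Vector and at 5.05, 4.76 and 4.08 CPM in the libraries labelled FTO. Vector replicate 2 fell inside the range of the other group. The log2 fold change was -0.35 (SE 0.161, 95% confidence interval -0.69 to -0.00), and its edgeR adjusted p of 0.0724 missed the threshold. That value ranged from 0.0348 to 0.221 over the alternatives, passing only without Vector replicate 2, where the change was -0.46.

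The make-up of each family was then compared within libraries, as the share of the family's counts that fell on each gene. A longer transcript gives more reads, so these shares say how the mixture moved between groups and not which subunit was more abundant. Fos held 54.3%, 51.3% and 52.7% of FOS family counts in Vector and 10.8%, 11.3% and 10.3% in the libraries labelled FTO. Fosl1 went from 17.0% ± 1.86 to 43.1% ± 4.23 and Fosl2 from 26.3% ± 4.48 to 44.6% ± 4.89 (SD, n = 3). Fos therefore held the largest share of counts in every Vector library and a small one in every library labelled FTO.

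JUN family shares moved in the same manner. Jun held 27.2%, 29.0% and 26.0% of the counts in Vector but 6.92%, 5.97% and 6.56% in the libraries labelled FTO. The share of Junb was 42.3% ± 2.19 in Vector and 69.9% ± 0.860 in the libraries labelled FTO, while that of Jund was 30.3% ± 0.745 and 23.6% ± 1.23. For each of the 7 genes the shares of the groups did not overlap, and the two-sided exact permutation p-value was 0.1, the smallest that 3 libraries against 3 allow. Shares within a family have a fixed sum, so these results are not separate from each other. The CPM of the same 7 genes did not overlap either, as was so for 70.3% of all tested genes.

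By contrast, the family totals of CPM moved little. These totals were not scaled by transcript length, so longer transcripts weigh more in them and they do not give numbers of transcripts. FOS family CPM summed to 36.8, 36.4 and 30.9 in Vector and to 40.3, 35.3 and 42.1 in the libraries labelled FTO, a ratio of means of 1.13 (two-sided exact permutation p = 0.3). JUN family CPM summed to 231, 216 and 229 in Vector and to 230, 245 and 226 in the libraries labelled FTO, a ratio of 1.04 (two-sided exact permutation p = 0.5). Both pairs of groups overlapped, although this does not show that the totals were the same. The ratio of Junb to Jun CPM rose from 1.55 ± 0.164 to 10.8 ± 0.726, and that of Fosl1 to Fos from 0.323 ± 0.0273 to 3.97 ± 0.207 (SD, n = 3, two-sided exact permutation p = 0.1 for each).

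**Figure D3:**
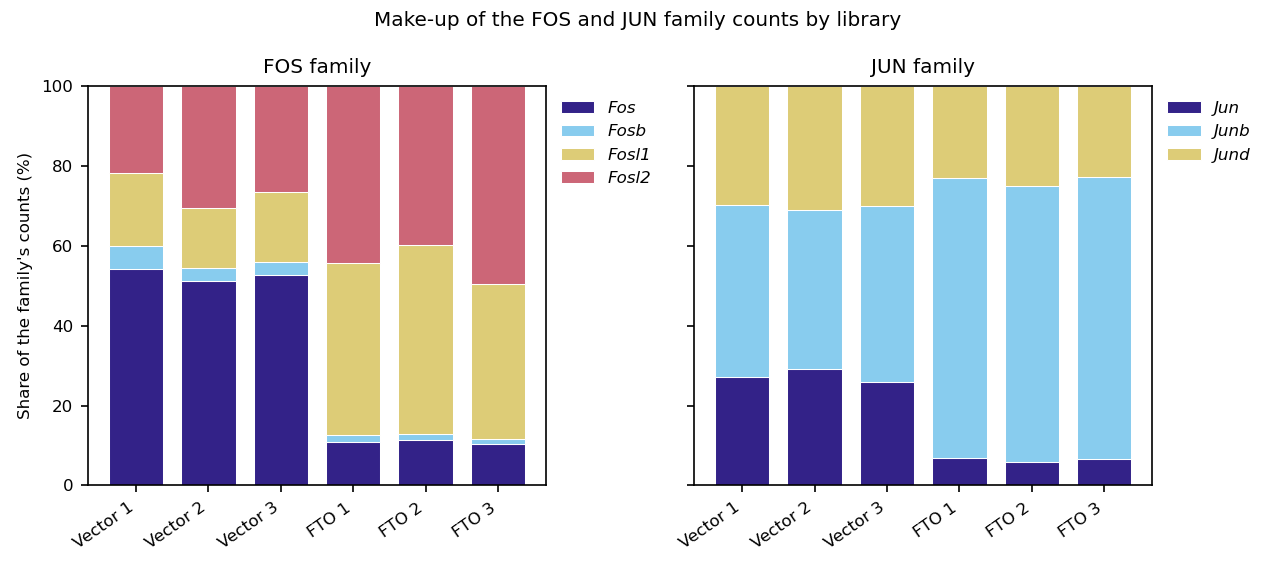
Share of the family's counts (vertical axis, %) on each gene of the FOS family (left) and the JUN family (right) in each of the 6 libraries. Fos falls from a mean of 52.8% to 10.8% and Jun from 27.4% to 6.49%, while Fosl1, Fosl2 and Junb widen in all 3 libraries labelled FTO.

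To see whether the family members that moved in opposite directions carry known response elements next to their start, RefSeq promoter windows (GRCr8 assembly) were searched on both strands for 8 motifs in the 250 bases before the gene start. Windows matched by symbol for Fosb, Fosl1, Fosl2, Junb, Jund and Egr1. Fos, Jun, Atf3 and Myc were not analysed here in this respect. Junb and Jund are shown because they are neighbours in the family and changed in opposite directions. Capitals mark the motifs found.
Junb, chr19:40080876-40081125, plus strand: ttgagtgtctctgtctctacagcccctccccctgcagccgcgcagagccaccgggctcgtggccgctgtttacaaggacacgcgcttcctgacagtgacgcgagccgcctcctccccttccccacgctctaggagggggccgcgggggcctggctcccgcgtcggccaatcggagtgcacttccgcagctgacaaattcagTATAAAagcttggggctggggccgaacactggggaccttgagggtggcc
Jund, chr16:18769772-18770021, minus strand: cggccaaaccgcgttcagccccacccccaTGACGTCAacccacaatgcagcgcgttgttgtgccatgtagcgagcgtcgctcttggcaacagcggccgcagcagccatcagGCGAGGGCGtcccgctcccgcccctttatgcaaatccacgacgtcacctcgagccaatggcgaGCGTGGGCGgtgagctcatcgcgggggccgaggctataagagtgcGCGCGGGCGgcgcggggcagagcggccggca

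In the Junb window the only match was a TATA box (TATAAA), which 13.1% of 27457 windows of the same length hold. The Jund window held a full cAMP response element (TGACGTCA, the element bound by CREB and ATF dimers), found in 1.70% of windows. It also held 3 matches to the EGR site GCGNGGGCG, which occurs in 4.53% of windows. The Fosl2 window held 1 EGR site. That of Fosb held 1 match to the TATA box letters, on the strand opposite to the gene and 180 bases before the start. The Egr1 window held 2 CArG boxes, the element of serum response factor found in 1.5% of windows. No match to any of the 8 motifs was seen for Fosl1, and none of the 6 windows held the AP-1 site TGANTCA (6.36% of windows), the E-box CACGTG (5.79%), the STAT site TTCNNNGAA (7.52%) or the kappaB site (3.52%). None of the matches overlapped. A match is a run of letters only, and binding was not measured in these data.

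The rest of the pathway was described from gene lists, starting with other basic leucine zipper factors, only some of which can pair with FOS or JUN proteins. Of 21 tested, 4 rose and 8 fell (57.1% called, against 65.9% of all genes), with a median log2 fold change of -0.13. Maff, a small MAF protein without a transactivation domain, rose from 24.8 ± 0.156 to 61.5 ± 2.43 CPM (1.31, SE 0.0625, edgeR adjusted p = 5.2e-11). Batf2, an interferon-induced AP-1 inhibitor, had at most 1 count in each Vector library and reached 1.605 ± 0.322 CPM, at least 7.31-fold higher against a floor of 3 counts per library. Atf5, a stress-response factor, fell from 348.7 ± 4.57 to 101.8 ± 7.40 CPM.

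Of 20 other immediate-early genes tested, 8 rose and 7 fell (75% called, against 65.9% of all genes), with a median of -0.14. Zfp36l1, which promotes decay of AU-rich mRNAs, rose from 157.6 ± 2.42 to 325.5 ± 11.0 CPM, and the antiproliferative gene Btg2 rose from 17.5 ± 0.208 to 30.9 ± 1.77 CPM. Arc and Phlda1 fell by 1.66 and 0.70 on the log2 scale (SE 0.252 and 0.0882), Arc from only 3.28 CPM. Egr4 had 0 counts in every library.

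Cofactors around Egr1 and serum response factor were called in 5 of 7 cases (71.4%, against 65.9% of all genes), 3 higher and 2 lower, with a median of 0.13. Nab2, the corepressor that binds EGR proteins and is itself an EGR target, doubled from 56.4, 55.5 and 57.9 CPM to 108.7, 114.6 and 112.9 CPM (0.99, SE 0.0501, edgeR adjusted p = 1.1e-10). Elk3 rose by 0.36 and Srf fell by 0.27. Mkl1, the actin-regulated cofactor of serum response factor, fell by 0.31.

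Upstream, of 25 MAP kinase cascade genes tested, 6 rose and 10 fell (64% called, against 65.9% of all genes), with a median of -0.10. Map2k1, which encodes a kinase that activates ERK, rose from 115.3 ± 1.94 to 198.9 ± 8.21 CPM and the p38 substrate Mapkapk2 from 173.1 ± 3.93 to 288.5 ± 7.55 CPM. The largest decreases were those of Rps6ka1 and Map2k6, at -1.12 and -1.05 on the log2 scale, the second from 1.65 CPM. Messenger levels of kinases do not report their activity, which was not measured.

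In the MYC network, 4 of 10 tested genes rose and 3 fell (70% called, against 65.9% of all genes), with a median of 0.01. Mxd1, which competes with Myc for MAX, rose from 16.2, 16.2 and 19.1 CPM to 50.6, 47.4 and 47.9 CPM (2.83-fold, 95% confidence interval 2.52 to 3.18, edgeR adjusted p = 1.5e-10). Mnt, another such competitor, rose by 0.62 on the log2 scale. Mlxip fell by 0.62, and Mycn fell by 1.36 from 5.07 ± 1.47 CPM. Of 18 MYC target genes, 6 rose and 5 fell (61.1% called), with a median of 0.02. Within it Ldha, a lactate dehydrogenase gene, rose by 1.65 and the translation factor gene Eif4a1 by 0.31, while Ccnd2, a cyclin gene, fell by 1.72 and Cad, needed for pyrimidine synthesis, fell by 0.68.

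**Figure D4:**
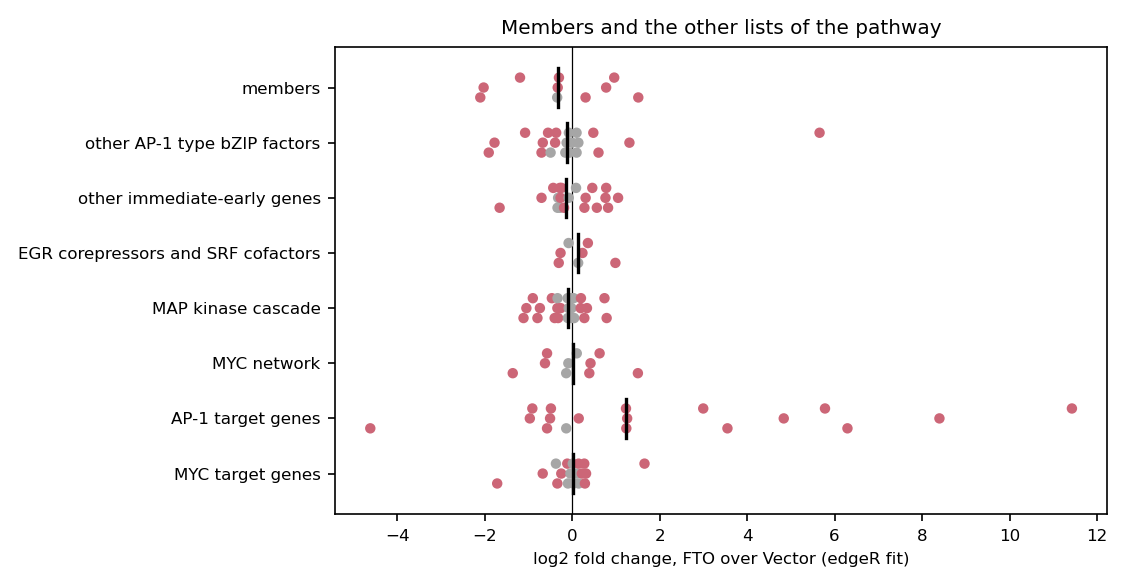
Log2 fold change, libraries labelled FTO against Vector (horizontal axis), for every tested gene of the 10 factors and of the 7 pathway lists, without the marker and stress lists. Red points passed an adjusted p-value of 0.05, grey points did not, and black bars are medians, which lie between -0.32 and 0.13 in the plotted lists other than the AP-1 target genes, at 1.23. Fitted values of Batf2, Mmp3, Mmp10 and Mmp13, with 2 counts or fewer in any Vector library, depend on the prior count of the fit.

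Of the AP-1 target genes 17 of 18 were called, with 11 higher and 6 lower (94.4% against 65.9% of all genes) and a median of 1.23, the same with genes at the floor set to their bounds. Many of them also answer to NF-κB or STAT factors, so the list is not specific to AP-1. Mmp3 and Mmp10, stromelysins that degrade matrix, had 0 counts in every Vector library. In the libraries labelled FTO, Mmp3 was at 20.2, 35.2 and 15.6 CPM and Mmp10 at 2.31, 4.23 and 2.18 CPM, at least 108-fold and 13.2-fold higher. Mmp10 is named for its fitted value, which depends on the prior count, and its bound lies below the 54.9-fold rise of Mmp9, a gelatinase, from 0.934 ± 0.232 to 51.9 ± 14.2 CPM. In the opposite direction, Plau, the urokinase gene with a well-known AP-1 enhancer, fell from 85.7, 78.9 and 81.5 to 4.35, 2.57 and 3.07 CPM (-4.62, SE 0.110, edgeR adjusted p = 1.0e-14), and Hbegf fell by 0.97.

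Lists of dissociation stress, endothelial and mural genes were followed because handling and other cell types can raise immediate-early genes. For comparison with the counts below, 33.2% of all tested genes were called higher and 32.8% lower. Heat shock genes of the stress list summed to 2765 to 2792 CPM in Vector and 2826 to 2949 CPM in the libraries labelled FTO, with 3 of 8 higher and 4 lower. Most of both sums came from Hsp90ab1, at means of 1995 and 1839 CPM, so they mainly follow that gene. Hspa1b fell by 1.46 and Hspa8 fell by 0.46 on the log2 scale, while Hsph1 rose by 0.83 and Dnaja1 by 0.57. Hspa1a and Hsp90aa1 were at 3 counts or fewer in every library. Of 8 endothelial markers tested, 5 were higher and 2 lower, with sums of 653 to 683 and 699 to 761 CPM, and Emcn had 0 counts in Vector. Of 7 mural markers tested, 2 were higher and 5 lower, with sums of 1704 to 1768 and 860 to 963 CPM. Their part in the levels of the AP-1 genes was not tested.

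Finally, the genes closest in pattern were sought for the factor with the largest fall and the one with the largest rise, by the Euclidean distance between centred log2 CPM profiles over the 6 libraries. Among 10041 genes with at least 100 counts on average, those nearest to Fos were Palmd (distance 0.172), Jun (0.180) and Spata13 (0.200). The dimer partner Jun was thus second in likeness to Fos. Nearest to Fosl1 were Gsta1 (0.123), Ly75 (0.133) and Klf15 (0.140). With 2 groups, such a distance mostly records the size of the group difference and carries no test.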

How the data were processed

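The authors deposited raw counts per gene symbol, 1 file per library. Per the labels, total RNA was made into libraries with a NEBNext Ultra kit, and the submitters' processing notes name Trimmomatic and the rn6 build. The aligner, the counter and the use of strand are not given in the sources used here, so reads of antisense partners cannot be told apart. Genes were kept with filterByExpr (minimum count 10), scaled by TMM (factors 0.995 to 1.01) and compared with the edgeR 4.0.16 quasi-likelihood test in R 4.3.3, two-sided, without covariates, with Benjamini-Hochberg adjustment over 12941 genes. Standard errors were derived from the F statistic. The model was tested on simulated data. CPM are TMM-normalized. Family shares were taken from counts, without the planned division by transcript length. Counts of 3 per library served as the floor, worth 0.168 to 0.227 CPM. Libraries held 13178952 to 17857999 counts, and intervals cover counting error and the spread between libraries only.

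Alternatives were DESeq2 1.42.0, limma-voom (limma 3.58.1), DESeq2 size factors, library size alone, 2 other filters, the replicate number as a block and leaving out each library. The members, lists and tests were chosen with earlier results of these data known. Besides the 10 factors and Fto, the text names the 2 largest increases and 2 largest decreases in fitted log2 fold change past the adjusted threshold in each list other than cell markers, and 3 nearest genes by profile. 1 gene that this rule names is not reported here. Egr4, Mmp9, Mmp13, Adgre1, C1qb, C1qc, Col1a1, Col3a1, Dcn, Hsp90ab1 and Tnnt2 were named after their values were seen, and motifs were chosen then too.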

Additional observations from a re-analysis of the deposited data

How the results depend on the processing

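Of the 10 factors, 9 passed the adjusted threshold under DESeq2, limma-voom, both other scalings and both other filters. When single libraries were left out, 8 to 10 passed. Of all 12941 genes, DESeq2 called 7795, limma-voom 8488, and the other scalings 8534 and 8511. The other filters called 9009 of 17166 and 8469 of 12878 genes. Leaving out single libraries gave 7902 of 13131 to 8719 of 13107 genes called. The study threshold was passed by 4, and by 3 to 5 when single libraries were left out. Of all genes, 2539 of 12941 passed it, and 2616 of 13133 to 2703 of 13107 when single libraries were left out. Fosl2 (0.80 to 1.13) crossed the 2-fold line without Vector replicate 2 or replicate 2 labelled FTO. Fosb (-1.41 to -0.82) fell under that line without Vector replicate 1. Calls changed for Fosb, whose adjusted p-value was 0.0935 without Vector replicate 1, and for Atf3 (-0.46 to -0.25), which passed at 0.0348 without Vector replicate 2. The other 392 values computed under alternatives kept their direction and side of the threshold, moved by less than the spread between libraries, or, for counts, stayed within 1.5 times the main count. The ratios of the family totals, whose alternatives were added after the data were seen, ranged from 1.07 to 1.19 for FOS and from 1.01 to 1.05 for JUN. No pairing by replicate number was visible, as deviations from the group means correlated at 0.00284, -0.0693 and 0.0207 for equal numbers and from -0.0935 to 0.0873 for different ones. These values cannot show whether libraries of equal number shared a culture. With the replicate block, 9 factors passed and 4 reached the study threshold. Of all 12941 genes, 8399 were called in place of 8531, and 2546 reached the study threshold in place of 2539. Shares scaled by transcript length were not run, since no transcript lengths of the rn6 build were used here. Depth limits Fosb, with 7 to 28 counts per library.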
